A study of Mus musculus with 31 samples.

Results

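The expression of 10 genes of the major histocompatibility complex (MHC) class I antigen presentation pathway was followed in RM-9 and MC-38 tumors before and after radiotherapy (RT). The genes were taken by name: H2-K1 and H2-D1, B2m, Tap1, Tap2, Tapbp, Nlrc5, Psmb8, Psmb9 and Psmb10. These were 10 of the 45786 genes quantified in every library, and all 10 had a value in all 31 libraries. RM-9 is a mouse prostate cancer line and MC-38 a mouse colon cancer line. Both were grown under the skin of the right hind leg of wild-type male C57BL/6J mice bought as young animals, so each tumor stood outside its organ of origin and held host cells beside the injected line. Tumors received a single dose of 15 Gy and were taken 3, 12 or 24 h later, and the Control tumors of each model were not irradiated and carry a 3 h time label. Each library came from 1 mouse. RM-9 had 4 Control mice and 4, 4 and 3 mice at RT 3 h, RT 12 h and RT 24 h, and MC-38 had 4 mice in each of these groups. Every RT time of a model was compared with the same 4 Control mice, and no Control tumors of a 12 h or 24 h label were among the samples.

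Class I molecules carry short peptides from the inside of a cell to its surface, where CD8+ T cells read them and NK cells sense their loss. Proteins are cut by the proteasome, in which the interferon-inducible subunits Psmb8, Psmb9 and Psmb10 can replace the constitutive subunits Psmb5, Psmb6 and Psmb7 and so form the immunoproteasome. Peptides are then pumped into the endoplasmic reticulum by the Tap1 and Tap2 transporter and loaded, with the help of the chaperone tapasin (Tapbp), onto a heavy chain (H2-K1 or H2-D1) paired with beta-2 microglobulin (B2m). Nlrc5 is a transactivator that works at class I promoters together with factors that bind short conserved boxes, and interferons raise the whole set. Tumors often carry this pathway at a low level, which hides them from T cells.

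The promoters of the class I light and heavy chains and of the transporter subunit Tap1 are shown as a description. No link between these sequences and the levels of the genes was tested. They are RefSeq sequences of the GRCm38.p6 build, on the strand of the gene. Each holds the 200 bases that end just before the RefSeq start of the gene. H2-K1 had 2 such starts, and the most upstream was taken. The RefSeq starts can differ from those of the deposited coordinates given further on. H2-K1 was at chr17:34000348-34000547 on the minus strand, H2-D1 at chr17:35262894-35263093, B2m at chr2:122147487-122147686 and Tap1 at chr17:34187356-34187555, these 3 on the plus strand. Capitals mark a kappa B type box (GGGGATTCC), an interferon response type box (GAANNGAAA, on the opposite strand, in H2-K1 and H2-D1, and in B2m a GAAA repeated after 2 bases), the core of a cyclic AMP response type box (TGACG) and a CCAAT box (CCAAT, or ATTGG on the other strand).
H2-K1: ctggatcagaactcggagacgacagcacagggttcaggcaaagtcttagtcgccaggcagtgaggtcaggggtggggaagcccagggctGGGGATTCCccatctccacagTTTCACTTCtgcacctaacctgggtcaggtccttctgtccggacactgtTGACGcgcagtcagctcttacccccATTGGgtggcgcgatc
H2-D1: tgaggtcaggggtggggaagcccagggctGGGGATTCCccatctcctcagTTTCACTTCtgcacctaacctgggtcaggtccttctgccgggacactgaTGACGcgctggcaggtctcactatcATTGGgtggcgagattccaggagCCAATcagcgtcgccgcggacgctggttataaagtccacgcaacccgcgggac
B2m: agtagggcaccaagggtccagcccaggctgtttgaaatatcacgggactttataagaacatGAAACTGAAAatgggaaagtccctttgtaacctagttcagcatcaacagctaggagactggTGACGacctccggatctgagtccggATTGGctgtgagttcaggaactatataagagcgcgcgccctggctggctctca
Tap1: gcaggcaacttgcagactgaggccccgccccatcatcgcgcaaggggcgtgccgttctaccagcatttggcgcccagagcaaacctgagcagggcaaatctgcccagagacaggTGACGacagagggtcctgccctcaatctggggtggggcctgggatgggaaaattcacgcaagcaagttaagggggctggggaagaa

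H2-K1, H2-D1 and B2m each held a TGACG followed by ATTGG after exactly 20 bases, a spacing that was searched for after these sequences had been seen. Over all 32544 distinct RefSeq promoter windows of 300 bases (250 before and 50 after the start, both strands), 31 or 0.0953% held the letters in this order and spacing. The kappa B type box stood in 0.252% of all windows, GAANNGAAA in 7.57% and the repeated GAAA in 3.45%, some windows with the repeated GAAA counting for both. TGACG alone stood in 20.9% and the CCAAT box alone in 37.4%. In H2-K1 the kappa B type box began 111 bases before the start, the interferon response type box 90 bases and the TGACG core 41 bases before it. In H2-D1 the same boxes began 171, 150 and 101 bases before the start, and in B2m the repeated GAAA began at 139 and TGACG at 78 bases. Tap1 held only a TGACG in the printed stretch, 86 bases before its start. The windows of Psmb8 and Psmb10 held none of these boxes, Tapbp had CCAAT boxes only, Psmb9 had a TGACG and a CCAAT box, and the windows of Tap2 and Nlrc5 were not analysed here. These are matches of letters and say nothing of what bound there.

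The deposited coordinates match GRCm38 and place 7 of the 10 genes on chromosome 17, in the MHC region. H2-K1 (ENSMUSG00000061232) lies at chr17:33996017-34000333 on the minus strand, and H2-D1 (ENSMUSG00000073411) at chr17:35262730-35267499, which includes the promoter stretch printed above. Between them lie Tap1 (ENSMUSG00000037321, chr17:34187553-34197225), Psmb8 (ENSMUSG00000024338, chr17:34197721-34201454) and Tap2 (ENSMUSG00000024339, chr17:34203527-34216321) on the plus strand. Psmb9 (ENSMUSG00000096727, chr17:34181988-34187764) lies head to head with Tap1 on the minus strand and overlaps its first bases, so the Tap1 stretch printed above lies within Psmb9. Tapbp (ENSMUSG00000024308) is at chr17:33915899-33929288. B2m (ENSMUSG00000060802) is at chr2:122147686-122153083, Nlrc5 (ENSMUSG00000074151) at chr8:94472763-94527272 and Psmb10 (ENSMUSG00000031897) at chr8:105935728-105938392. H2-K1 and H2-D1 share long stretches of sequence with each other and with the H2-Q genes, and B2m and Tapbp overlap Patl2 and Zbtb22, so reads could be split between these genes. Whether counting used the strand is not given in the sources used here.

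Values are TPM, transcripts as parts of a fixed total that is the same in each library, counted per length of the gene. Libraries held 21400000 to 29400000 reads of 75 bases, as derived from the deposited coverage and FPKM. The mitochondrial transcript mt-Nd4l alone took 35.6 to 43.5% of the TPM in RM-9 and 12.9 to 29.6% in MC-38, which leaves a smaller share of the total for other genes in RM-9, and every result was also computed after median-ratio scaling, which sets the typical gene equal between libraries. Of the markers of the labelled organs, Pbsn (prostate) was listed at 0 in every RM-9 library, and Cdx1 and Cdx2 (colon) at 0 in every MC-38 library, while Cdx2 was at 3.74 to 7.68 TPM in RM-9. The epithelial keratin Krt8 was at 463 to 1069 TPM in RM-9 and at 0 to 0.202 TPM in MC-38. Skeletal muscle transcripts (Acta1, Myh4, Ckm and Mylpf summed) varied from 1.18 to 1662 TPM in RM-9 and from 5.08 to 7570 TPM in MC-38, the highest being MC-38 Control mouse 1, which also had the highest mt-Nd4l share of that model. In TPM this mouse was the lowest MC-38 Control mouse for all 10 genes. In FPKM it was not the lowest for B2m, Psmb8, Psmb9 and Psmb10.

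All 10 class I genes were higher in untreated MC-38 than in untreated RM-9 tumors, by 5.52 to 21.8 times in mean TPM. The 10 genes together summed to 1137 ± 296 TPM (SD, n = 4) in RM-9 Control and 9434 ± 1469 TPM (SD, n = 4) in MC-38 Control tumors. The heavy chains and the peptide transporter differed more than B2m and Tapbp.

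H2-K1 and H2-D1 are the classical heavy chains of this strain. H2-K1 stood at 155, 170, 86.4 and 138 TPM in RM-9 Control mice 1 to 4 and at 1702, 2428, 2630 and 2317 TPM in MC-38 Control mice 1 to 4. H2-D1 stood at 181, 203, 103 and 160 TPM in the same RM-9 mice and at 1382, 1901, 2080 and 1911 TPM in the MC-38 mice. Every MC-38 mouse lay above every RM-9 mouse for both, and RM-9 Control mouse 3 was the lowest RM-9 mouse for both. The log2 difference was 4.07 ± 0.23 (SE; adjusted p = 8.03e-15) for H2-K1 and 3.51 ± 0.22 (adjusted p = 7.00e-14) for H2-D1 by limma, adjusted over 15358 genes. B2m, the light chain that all class I heavy chains need, stood at 704, 1027, 536 and 673 TPM in RM-9 and at 3241, 4174, 4531 and 4299 TPM in MC-38 Control mice. It had the smallest difference of the 10 genes, 2.49 ± 0.19 on the log2 scale (adjusted p = 3.41e-12).

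Tap1 stood at 9.17, 12.5, 5.83 and 12.3 TPM in RM-9 and at 130, 192, 205 and 180 TPM in MC-38 Control mice. Tap2, its partner in the transporter, stood at 4.14, 4.90, 2.96 and 4.57 TPM in RM-9 and at 55.2, 74.0, 86.1 and 80.5 TPM in MC-38. Tapbp, which bridges the transporter and the heavy chain, stood at 44.5, 48.9, 33.1 and 48.7 TPM in RM-9 and at 237, 321, 378 and 362 TPM in MC-38. The transporter subunits thus differed by a larger factor, 17.8 times each in mean TPM, than tapasin at 7.41 times. On the log2 scale the differences were 4.12 ± 0.26 for Tap1 (adjusted p = 1.54e-13), 4.00 ± 0.20 for Tap2 (adjusted p = 8.95e-16) and 2.87 ± 0.18 for Tapbp (adjusted p = 7.00e-14), all by limma.

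Of the immunoproteasome subunits, Psmb8 stood at 15.1, 15.0, 9.07 and 16.5 TPM in RM-9 and at 143, 180, 196 and 190 TPM in MC-38 Control mice. Psmb9 stood at 7.46, 6.37, 3.89 and 7.92 TPM in RM-9 and at 94.7, 111, 125 and 125 TPM in MC-38. Psmb10 stood at 23.5, 27.0, 15.0 and 31.5 TPM in RM-9 and at 313, 401, 415 and 453 TPM in MC-38. No MC-38 mouse overlapped an RM-9 mouse for any of the 3 subunits. Their log2 differences were 3.65 ± 0.19 (adjusted p = 1.25e-15), 4.08 ± 0.22 (adjusted p = 5.32e-15) and 4.04 ± 0.18 (adjusted p = 6.91e-17) by limma. Nlrc5, the transactivator, was the least abundant of the 10 genes in both models, at 0.809, 1.53, 0.558 and 1.32 TPM in RM-9 and at 10.1, 29.2, 33.2 and 19.4 TPM in MC-38 Control mice. Its log2 difference was 3.83 ± 0.29 (adjusted p = 3.53e-12), a ratio of mean TPM of 21.8.

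**Figure D1:**
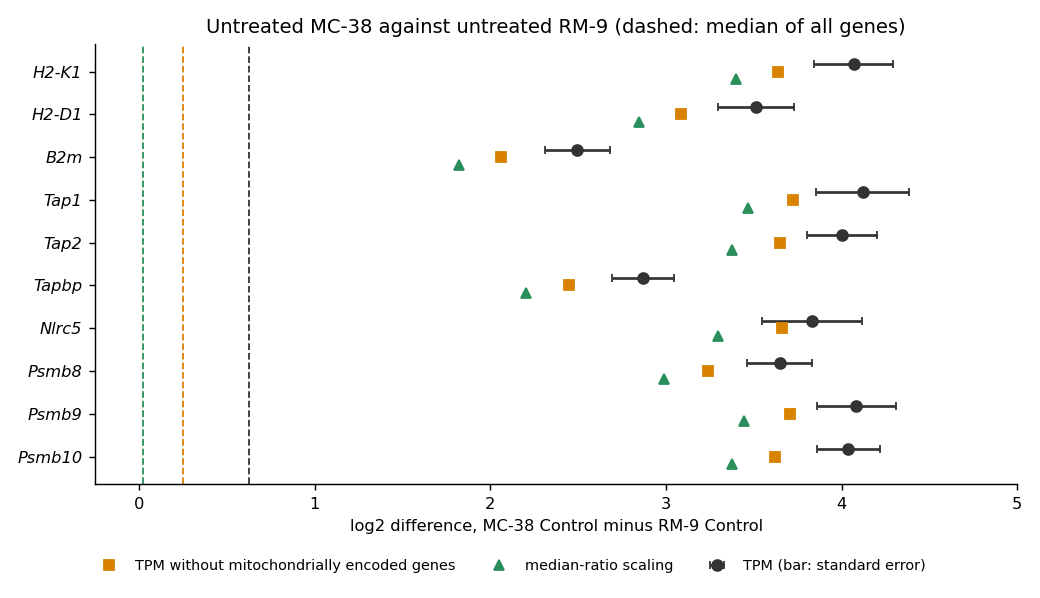
Log2 difference of each class I gene, MC-38 Control minus RM-9 Control (horizontal axis, n = 4 mice each), with circles and standard error bars for TPM, squares for TPM recomputed without mitochondrially encoded genes and triangles for median-ratio scaling. Every symbol lies to the right of the dashed line of its own color, the median of all genes (0.63 for TPM and 0.02 after median-ratio scaling), with B2m the nearest at 2.49 and 1.82.

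The count of 10 of 10 genes called higher has to be read against the background, in which 64.7% of the 15358 genes tested were called higher in MC-38, 10.7% lower, and 50.9% had every MC-38 Control library above every RM-9 Control library. The median log2 difference was 3.92 over the 10 genes and 0.63 over all genes. After median-ratio scaling, 33.4% of genes were called higher and 32.2% lower, the all-gene median was 0.02 and the median of the 10 genes was 3.33. All 10 genes remained called higher at that scaling, from 1.82 for B2m to 3.47 for Tap1 on the log2 scale, and without MC-38 Control mouse 1. Each model's libraries form a set of their own, so that tumor model and library set cannot be told apart. Summed markers of some host cells also differed: T cells (Cd3d, Cd3e, Cd3g, Cd8a, Cd8b1 and Cd4) summed to 3.36 to 6.03 TPM in RM-9 and 16.2 to 25.4 TPM in MC-38 Control tumors, with 5 of 6 called higher at both scalings. NK cell markers summed to 6.12 to 9.54 and 20.04 to 41.5 TPM with 4 of 4 higher at both scalings, and macrophage markers to 300.0 to 468 and 625 to 999.6 TPM with 5 of 6 higher, or 1 higher and 1 lower after median-ratio scaling. In bulk tumors, fewer cells of a type and less RNA per cell cannot be told apart, and the part of host cells in these differences was not tested.

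Within a model the order of the 10 genes was similar but not the same. In RM-9 Control tumors the mean TPM fell in the order B2m (735), H2-D1 (162), H2-K1 (137), Tapbp (43.8), Psmb10 (24.2), Psmb8 (13.9), Tap1 (9.93), Psmb9 (6.41), Tap2 (4.14) and Nlrc5 (1.05). The ranges of H2-D1 and H2-K1 overlapped, as did those of each pair of neighbours from Psmb10 to Tap2, and all other neighbours stood apart. In MC-38 Control tumors the order was B2m (4061), H2-K1 (2269), H2-D1 (1819), Psmb10 (396), Tapbp (324), Psmb8 (177), Tap1 (176), Psmb9 (114), Tap2 (73.9) and Nlrc5 (22.97). Here the ranges overlapped for H2-K1 and H2-D1, for Psmb10 and Tapbp, and for Psmb8 and Tap1, which stood above each other in 2 mice each. These orders are in TPM and partly change with the unit. In coverage, the signal per base of a gene, Psmb10 lay above Tapbp in each RM-9 Control mouse (31.2 to 66.1 against 23.1 to 35.4). Tap2 lay above Psmb9 in coverage in each Control mouse of both models.

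**Figure D2:**
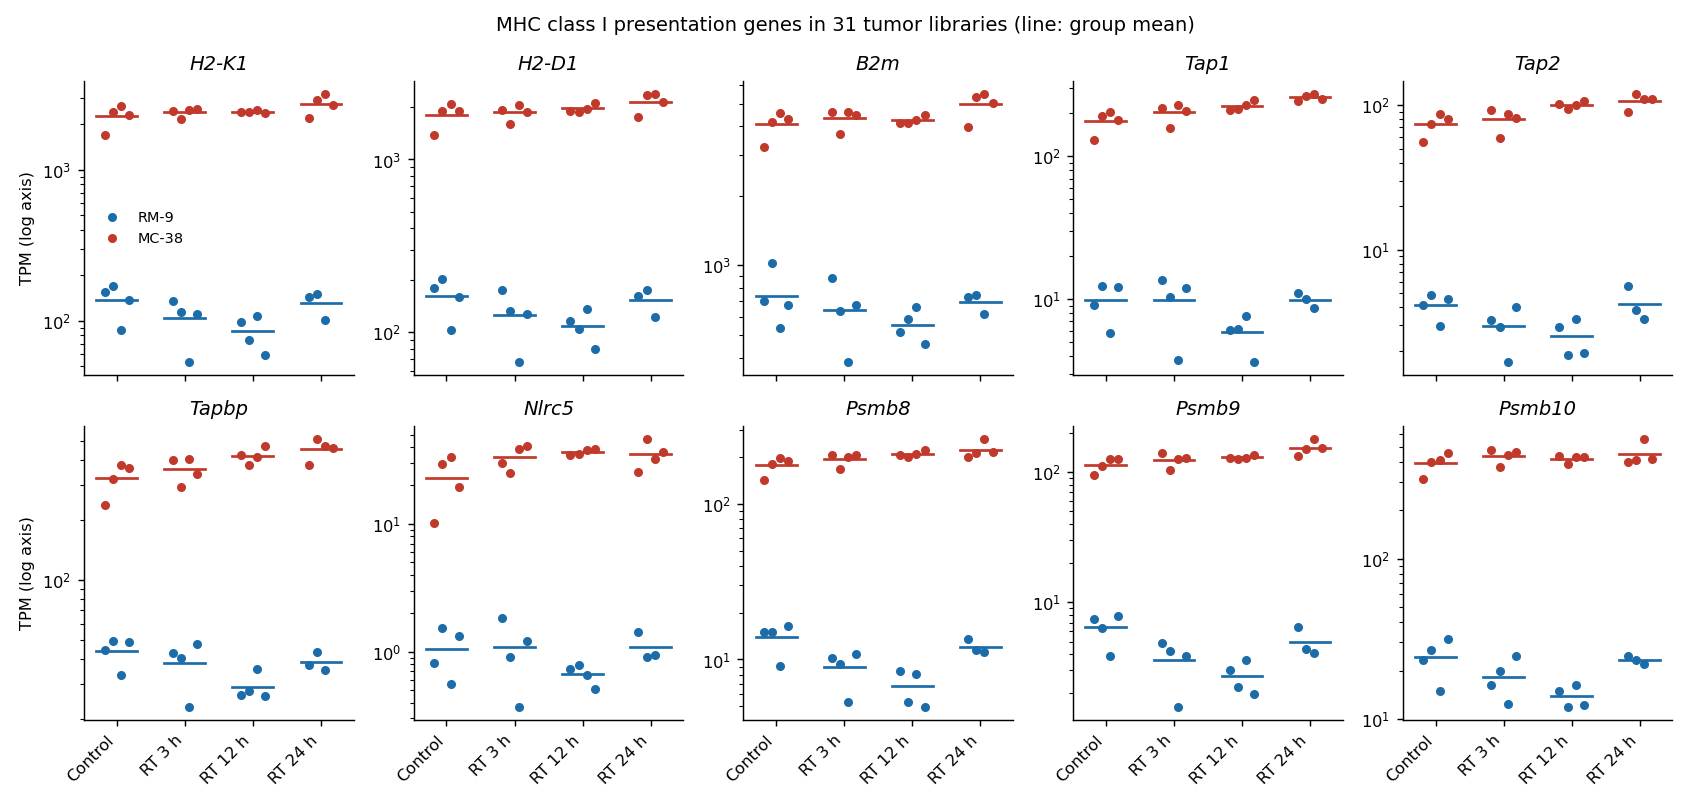
TPM of each class I gene (vertical log axis) in every library, by group along the horizontal axis, with 1 point per mouse (RM-9 blue, MC-38 red) and a line at the group mean. The models do not overlap for any gene at any time, and the RM-9 points of Psmb8 and Psmb9 at RT 12 h lie below all 4 Control points.

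Ratios of genes within a library do not depend on how the library is scaled. Psmb8 stood at 0.111 ± 0.016 (SD, n = 4) of the TPM of Psmb5, the constitutive subunit it replaces, in RM-9 Control and at 0.871 ± 0.107 in MC-38 Control tumors. Psmb9 stood at 0.0334 ± 0.0072 of Psmb6 in RM-9 and 0.377 ± 0.0315 in MC-38. Psmb10 stood at 0.153 ± 0.034 of Psmb7 in RM-9 and 1.52 ± 0.12 in MC-38, where it exceeded the constitutive subunit in all 4 mice. In TPM the heavy chains were ordered differently, with H2-K1 at 0.848 ± 0.013 of H2-D1 in RM-9 (0.855, 0.835, 0.841 and 0.862 by mouse) and at 1.25 ± 0.03 in MC-38 (1.23, 1.28, 1.26 and 1.21). This order depends on the unit. In coverage H2-K1 lay below H2-D1 in every Control mouse of both models. In MC-38 Control mice 1 to 4 the coverage was 1895, 1957, 1922 and 2097 for H2-K1 and 2093, 2117, 2041 and 2304 for H2-D1. B2m stood at 2.49 ± 0.36 times the sum of both heavy chains in RM-9 and at 0.998 ± 0.043 times in MC-38. None of these 5 ratios overlapped between the models, with log2 differences of 2.97, 3.52, 3.35, 0.56 and -1.31. Each had p = 0.0286 by a two-sided exact permutation test, which is the smallest that 4 against 4 mice allow, and an adjusted p = 0.125 over the 35 ratio comparisons, so none passed the threshold of 0.05.

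**Figure D3:**
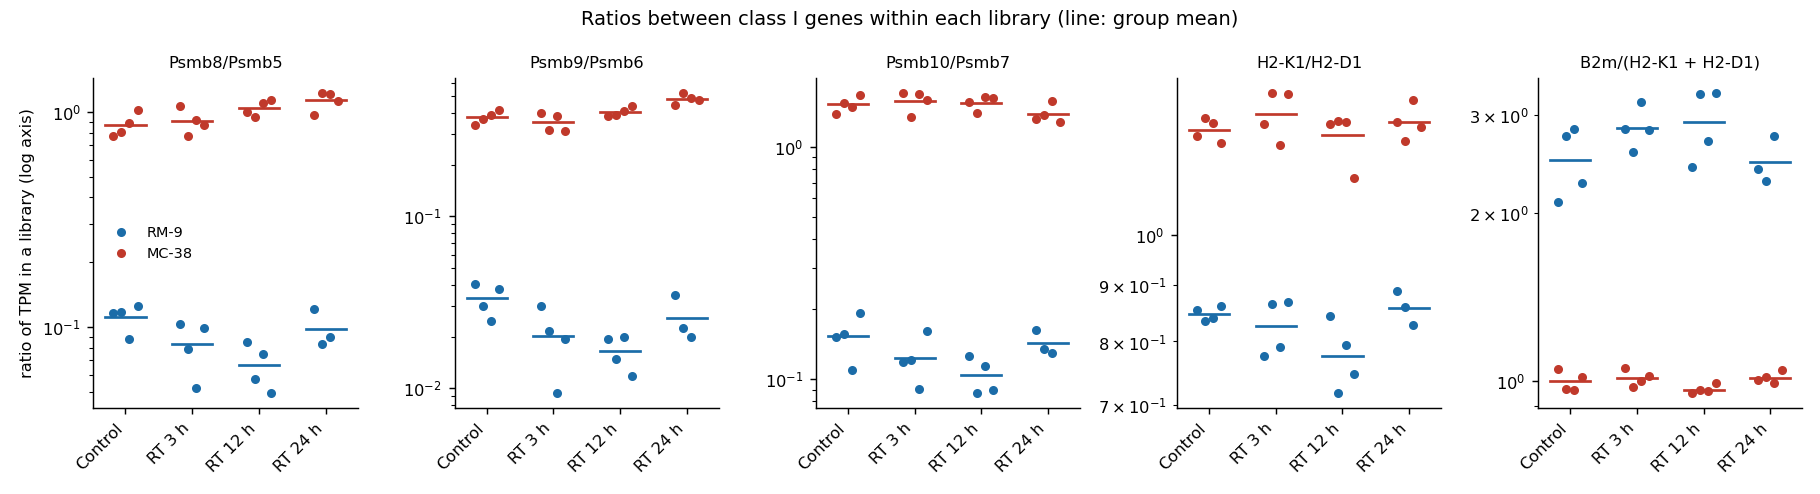
Ratio of TPM within a library (vertical log axis) for 3 immunoproteasome subunits over the constitutive subunits they replace, for H2-K1 over H2-D1 and for B2m over the summed heavy chains, with 1 point per mouse and a line at the group mean. MC-38 lies above RM-9 in the first 4 panels and below it in the last, where the Control means are 0.998 and 2.49.

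In irradiated RM-9 tumors the class I genes stood below Control at 12 h, with the 3 immunoproteasome subunits passing the test, and none passed at 3 or 24 h. Summed over the 10 genes the level was 1137 ± 296 TPM in Control, 958 ± 304 at 3 h, 811 ± 136 at 12 h (n = 4 each) and 1075 ± 131 at 24 h (n = 3). No gene of the 10 stood above its Control mean by more than 0.067 on the log2 scale at any RM-9 time in the limma fit.

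At 3 h none of the 10 genes passed in RM-9 by limma (smallest adjusted p = 0.150), and 2 had an unadjusted p under 0.05. Dunnett comparisons on TPM gave p under 0.05 for 2 (Psmb8 and Psmb9, lower). The Dunnett p-values were adjusted over the 3 times of a gene but not over genes, and were computed for the 10 genes only. All 10 log2 changes were negative, from -0.79 to -0.02, with a median of -0.39 where the median of all genes was 0.06. In the background 0.200% of 14013 genes were called higher and 0.0285% lower, and 21.8% had an unadjusted p under 0.05. The 10 genes were lowest in RT 3 h mouse 3, in which H2-K1 stood at 53.3 TPM against 112 to 136 TPM in the other 3 mice. Without that mouse the median change was -0.13.

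At 12 h Psmb8 stood at 8.46, 5.37, 8.095 and 4.96 TPM in the irradiated RM-9 mice, all below the Control values of 9.07 to 16.5 TPM. It fell by 1.00 ± 0.23 on the log2 scale (SE; adjusted p = 0.0303, limma over 14013 genes). Psmb9 stood at 3.04, 2.24, 3.59 and 1.97 TPM, all below the lowest Control mouse at 3.89 TPM, and fell by 1.09 ± 0.28 (adjusted p = 0.0348). Psmb10 stood at 14.9, 11.9, 16.4 and 12.3 TPM and fell by 0.75 ± 0.21 (adjusted p = 0.0467), although RT mouse 3 lay above Control mouse 3 at 15.0 TPM. The immunoproteasome subunits thus had the largest decreases of the 10 genes and the only ones called by limma. Dunnett comparisons, which were not adjusted over genes, gave p under 0.05 for 4, these and Tapbp. The other 7 genes had negative changes that did not pass the test: -0.68 for H2-K1, -0.55 for H2-D1, -0.38 for B2m, -0.69 for Tap1, -0.63 for Tap2, -0.59 for Tapbp and -0.36 for Nlrc5, with adjusted p from 0.0639 for Tapbp to 0.355 for Nlrc5. Of all genes 8.30% were called lower and 0.0714% higher at 12 h, and 19.4% had every RT library below every Control library, as 2 of the 10 genes had. The median change was -0.65 over the 10 genes and -0.19 over all genes.

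The 12 h calls in RM-9 did not hold at other scalings. After median-ratio scaling all 10 changes were still negative (median -0.45) but none was called (-0.79, -0.90 and -0.53 for Psmb8, Psmb9 and Psmb10, with adjusted p = 0.158, 0.177 and 0.260), while 0.0428% of all genes were called lower. The count was also 0 without Control mouse 1, 2 or 4 and without RT 12 h mouse 1, 2 or 4. The ratio of Psmb8 to Psmb5, which has no scaling, was 0.0854, 0.0572, 0.0746 and 0.0492 at 12 h against 0.117, 0.117, 0.0879 and 0.124 in Control. The ratio of Psmb9 to Psmb6 was 0.0194, 0.0147, 0.0200 and 0.0118 against 0.0404, 0.0303, 0.0247 and 0.0380. Both sets lay wholly below Control, by 0.76 and 1.02 on the log2 scale, each with an exact permutation p = 0.0286 and an adjusted p = 0.125 over 35 comparisons. Psmb10 stood at 0.104 ± 0.019 of Psmb7 against 0.153 ± 0.034 (exact permutation p = 0.0857), with overlapping mice. Macrophage markers summed to 152 to 289 TPM at 12 h and 300.0 to 468 TPM in Control RM-9 tumors, with 4 of 6 called lower, and T cell markers to 0.934 to 3.57 and 3.36 to 6.03 TPM, with 2 of 3 tested called lower, and none of either list was called after median-ratio scaling. Epithelial markers (Epcam, Cdh1, Krt8 and Krt18) summed to 610 to 979 TPM at 12 h and 1059 to 1289 TPM in Control. Of these Krt18, a keratin named after its value was seen, went from 302 ± 34 to 181 ± 31 TPM (n = 4 each). Both are in TPM, in which the median change of all genes was -0.19 on the log2 scale. Their part in the change of the class I genes was not tested.

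At 24 h no class I gene was called in RM-9, none had an unadjusted p under 0.05 and Dunnett comparisons called 0, with log2 changes from -0.31 for Psmb9 to 0.07 for Nlrc5 (adjusted p = 0.999 and above). In the background 0% of genes were called higher and 0% lower, and 4.86% had an unadjusted p under 0.05. Psmb8 was at 13.5, 11.5 and 11.2 TPM and H2-K1 at 143, 151 and 101 TPM in the 3 mice, each within the range of the Control mice.

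**Figure D4:**
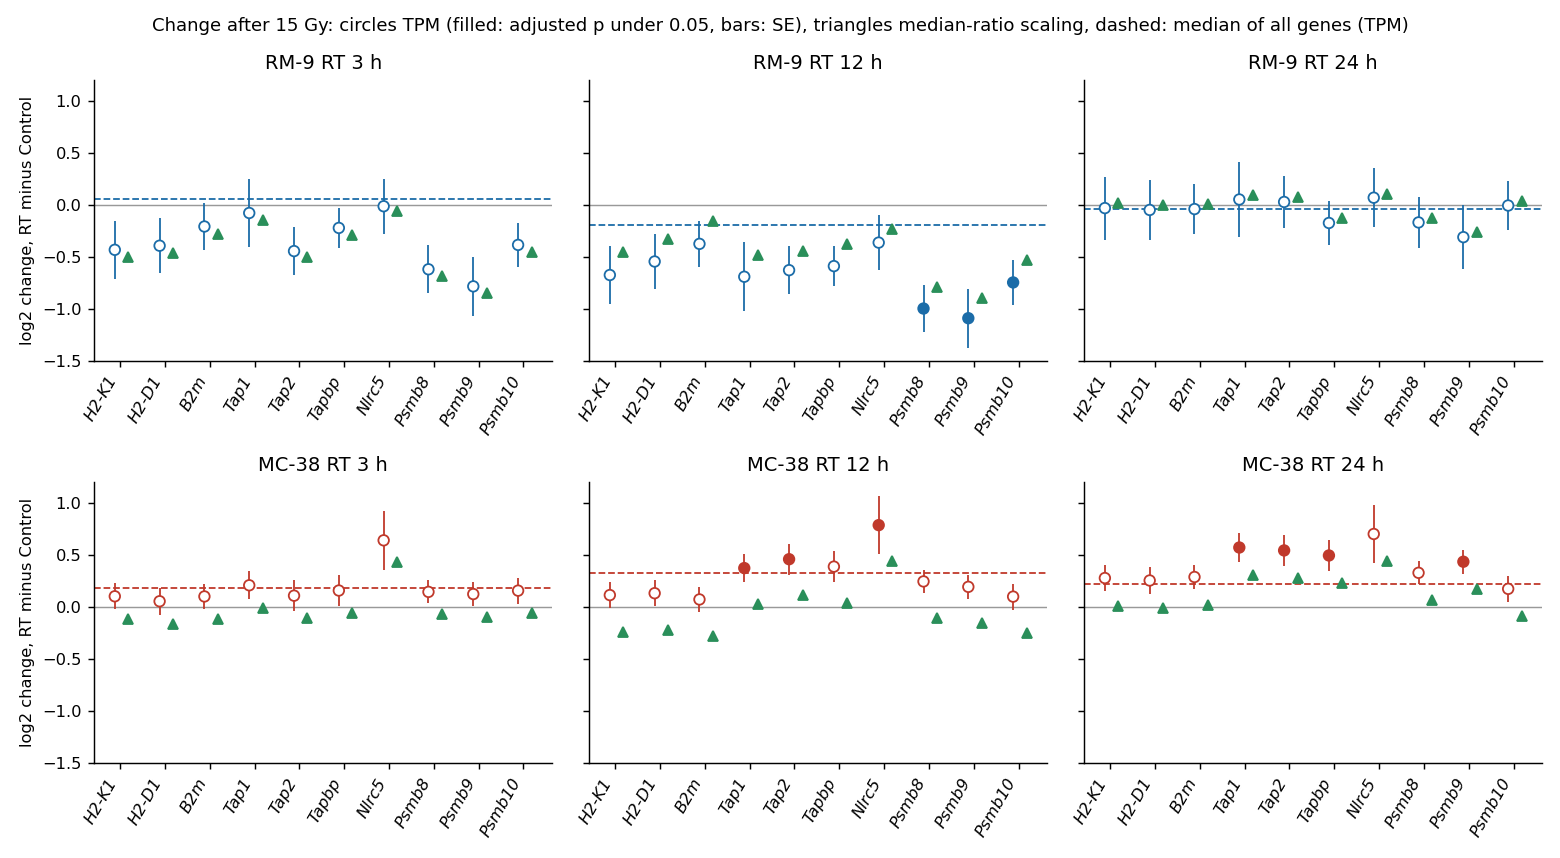
Log2 change of each class I gene, RT minus Control (vertical axis), at 3, 12 and 24 h in RM-9 (upper row) and MC-38 (lower row), with circles for TPM (filled where the limma adjusted p was under 0.05, bars for the standard error) and triangles for median-ratio scaling. The dashed line is the median of all genes in TPM, at -0.19 in RM-9 and 0.33 in MC-38 at 12 h, and the filled circles are Psmb8, Psmb9 and Psmb10 in RM-9 at 12 h and Tap1, Tap2, Tapbp, Nlrc5 and Psmb9 in MC-38 at 12 or 24 h.

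In irradiated MC-38 tumors the peptide transporter was higher than in Control at 12 and 24 h in TPM, by 0.37 to 0.57 on the log2 scale, and the classical heavy chains and B2m did not pass the test in TPM at any time. The 10 genes summed to 9434 ± 1469 TPM in Control, 10058 ± 952 at 3 h, 10177 ± 341 at 12 h and 11533 ± 1523 at 24 h (SD, n = 4 each). These TPM changes have to be set against the change of the typical gene, which was 0.19, 0.33 and 0.22 on the log2 scale at the 3 times.

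At 3 h none of the 10 genes was called by limma (smallest adjusted p = 0.232), 1 had an unadjusted p under 0.05 and Dunnett comparisons called 0. All 10 changes were positive, from 0.05 to 0.64 with a median of 0.13, but 9 of 10 were negative after median-ratio scaling, Nlrc5 at 0.43 being the exception. Of 15698 genes 0.0510% were called higher and 0.0127% lower, and 19.9% had an unadjusted p under 0.05.

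At 12 h Nlrc5 stood at 34.4, 35.5, 37.8 and 38.3 TPM, above the 10.1 to 33.2 TPM of the Control mice. It rose by 0.79 ± 0.28 on the log2 scale (adjusted p = 0.0453, limma over 15698 genes). Tap2 stood at 102, 94.3, 100.3 and 106 TPM against 55.2 to 86.1 TPM in Control and rose by 0.46 ± 0.15 (adjusted p = 0.0333), and Tap1 stood at 212, 214, 229 and 248 TPM against 130 to 205 TPM and rose by 0.37 ± 0.14 (adjusted p = 0.0480). These 3 genes, with Psmb8 and Psmb9, had every irradiated mouse above every Control mouse. In the background 28.5% of genes were called higher, 2.59% lower and 34.5% had every RT library above every Control library, so the 3 calls and 5 separated genes were near the share of all genes. The median change of the 10 genes, 0.22, was below that of all genes, 0.33.

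After median-ratio scaling, with 6.32% of all genes called higher and 9.82% lower, no class I gene was called higher at 12 h, and H2-K1 (-0.24, adjusted p = 0.0480) and B2m (-0.28, adjusted p = 0.0481) were called lower, against uncalled positive changes of 0.11 and 0.07 in TPM. The changes of Nlrc5, Tap2 and Tap1 stayed positive at 0.45, 0.11 and 0.02, with none called. In TPM the count of calls was 0 without MC-38 Control mouse 1 or any 1 of the 4 RT 12 h mice, 1 without Control mouse 4 and 5 without Control mouse 3. Macrophage markers summed to 230 to 542 TPM at 12 h against 625 to 999.6 TPM in Control, with 4 of 6 called lower and 5 after median-ratio scaling. T cell markers summed to 8.92 to 18.7 against 16.2 to 25.4 TPM, with 3 of 6 called lower and 6 after scaling. Their part was not tested.

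At 24 h Tap1 stood at 245, 266, 272 and 253 TPM, all above the highest Control mouse at 205 TPM, and rose by 0.57 ± 0.14 (adjusted p = 0.0137). Tap2 stood at 89.0, 118, 111 and 110 TPM, above the Control maximum of 86.1 TPM, and rose by 0.54 ± 0.15 (adjusted p = 0.0253). Tapbp stood at 376, 508, 470 and 459 TPM against 237 to 378 TPM and rose by 0.49 ± 0.15 (adjusted p = 0.0341), with mouse 1 overlapping Control. Psmb9 stood at 132, 152, 179 and 153 TPM against 94.7 to 125 TPM and rose by 0.43 ± 0.12 (adjusted p = 0.0227). The loading machinery thus supplied 3 of the 4 calls. T cell markers summed to 7.89 to 15.8 TPM at 24 h against 16.2 to 25.4 TPM in Control (2 of 6 called lower, and 4 after median-ratio scaling), and macrophage markers to 510 to 633 against 625 to 999.6 TPM (1 of 6 lower, and 3 after scaling). Endothelial markers summed to 47.9 to 58.1 against 32.4 to 44.9 TPM (2 of 3 higher, and none after scaling), and the only B cell marker tested, Cd79a, rose by 1.13. Their part was not tested. The changes that did not pass were 0.33 for Psmb8 (adjusted p = 0.0584), 0.70 for Nlrc5 (0.105), 0.29 for B2m (0.115), 0.28 for H2-K1 (0.146), 0.25 for H2-D1 (0.189) and 0.17 for Psmb10 (0.361). H2-K1 stood at 2217, 2892, 3159 and 2686 TPM, with mouse 1 inside the Control range of 1702 to 2630 TPM, and B2m at 3977, 5336, 5475 and 5039 TPM, with mouse 1 again inside the Control range.

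Of all genes 13.2% were called higher and 0.548% lower at 24 h, and 14.8% had every RT library above every Control library, as did Psmb8, Psmb9, Tap1 and Tap2. The median change was 0.38 over the 10 genes and 0.22 over all genes. After median-ratio scaling, with 7.81% of all genes called higher and 8.14% lower, Tap1 was the only member called (0.31, adjusted p = 0.0233), and Tap2 (0.28), Tapbp (0.23) and Psmb9 (0.17) kept their sign without passing. The count in TPM was 1 without Control mouse 1 or without RT 24 h mouse 2, 3 or 4, 6 without Control mouse 3 and 7 without RT 24 h mouse 1. In the ratios within a library, Psmb9 to Psmb6 was 0.446, 0.519, 0.486 and 0.472 at 24 h against 0.340, 0.366, 0.387 and 0.415 in Control, 0.35 higher on the log2 scale with no overlap (exact permutation p = 0.0286, adjusted p = 0.125). Psmb8 to Psmb5 was 1.13 ± 0.12 against 0.871 ± 0.107 (exact permutation p = 0.0571), while Psmb10 to Psmb7 was 1.39 ± 0.13 against 1.52 ± 0.12 (exact permutation p = 0.171). The heavy chain ratio H2-K1 to H2-D1 stayed at 1.13 to 1.35 in every MC-38 library and at 0.718 to 0.889 in every RM-9 library.

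Whether the change after RT differed between the models was tested directly as the MC-38 change minus the RM-9 change. At 12 h this difference was positive for all 10 genes in TPM and called for 8. Psmb9 led with 1.28 ± 0.31 on the log2 scale (adjusted p = 0.00435), followed by Psmb8 with 1.24 ± 0.26 (adjusted p = 0.00229), and the difference was not called for H2-D1 (0.68, adjusted p = 0.0691) and B2m (0.45, adjusted p = 0.153). The limma test was adjusted over 15358 genes, of which 44.9% were called in the same direction, and the median was 1.02 over the 10 genes and 0.50 over all genes. After median-ratio scaling 1.52% of all genes were called and none of the 10, with a median of 0.50 and B2m turned to -0.09. Without RM-9 Control mouse 2 or 4 or MC-38 Control mouse 1 the count in TPM was 5. At 3 h none was called, with 0% of all genes called higher and a smallest limma adjusted p = 0.369. Of the 10 genes 3 had an unadjusted p under 0.05, against 9.89% of all genes. At 24 h none was called, against 1.81% of all genes, with the smallest limma adjusted p = 0.137 for Tapbp (0.67 on the log2 scale). Here 2 of the 10 had an unadjusted p under 0.05, near the 22.2% of all genes.

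The other genes of the pathway were examined as lists. Between the Control tumors 64.7% of all genes were called higher in MC-38 and 10.7% lower. After median-ratio scaling the shares were 33.4% and 32.2%. Of 8 proteasome partners (the constitutive subunits, the PA28 and PA200 activators and the chaperone Pomp), all 8 were higher in MC-38 than RM-9 Control tumors, and 5 after median-ratio scaling. Psme2, a PA28 subunit that interferon induces, was at 82.9 ± 21.2 TPM in RM-9 and 459 ± 116 TPM in MC-38 (n = 4 each), 2.47 ± 0.23 higher on the log2 scale, and its partner Psme1 was 2.12 ± 0.16 higher. Of 7 loading and trimming genes all 7 were higher, or 5 higher and 1 lower after median-ratio scaling. The aminopeptidase Erap1, which trims peptides to length, was at 8.08 ± 0.81 and 66.8 ± 13.5 TPM, and the tapasin relative Tapbpl at 4.50 ± 0.21 and 38.3 ± 5.9 TPM. Of 13 transcriptional regulators all 13 were higher. After median-ratio scaling 5 were higher and 2 lower, and the 5 of 13 were near the share of all genes. The regulators were led by Irf1 at 18.2 ± 3.0 and 164 ± 37 TPM, a factor that carries the interferon signal to class I promoters.

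Of 13 non-classical class I genes 12 were tested, and all 12 were higher in MC-38 at both scalings. Of all genes 64.7% were higher in TPM and 33.4% after median-ratio scaling. Among the 12 were H2-Q4 at 10.5 ± 1.8 TPM in RM-9 and 146 ± 34 TPM in MC-38 and H2-M3, which presents formylated peptides, at 3.55 ± 0.49 and 37.4 ± 6.6 TPM. Of 17 interferon-stimulated genes all 17 were higher at both scalings, with a median log2 difference of 3.66 against 3.92 for the 10 class I genes. The antiviral gene Rsad2 differed by 5.36 ± 0.30 on the log2 scale and the chemokine Cxcl10 by 4.77 ± 0.36 (limma adjusted p = 1.13e-14 and 5.26e-12). Interferon genes themselves were sparse in RM-9: Ifnb1 stayed under 0.1 TPM in every RM-9 library and Ifng between 0 and 0.298 TPM, against 0.443 to 7.39 and 0.720 to 3.95 TPM in MC-38.

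After RT in RM-9 no gene of these lists was called in TPM at 3 or 24 h, and after median-ratio scaling 2 regulators, the NF-Y subunits Nfya (0.46) and Nfyb (0.37), were called higher at 3 h. At 12 h 8.30% of all genes were called lower. The genes of the lists called lower were Psme3 (-0.27), Nfyc (-0.52), Rela (-0.31), H2-T23 (-0.83), Ifit3 (-1.41) and Ifngr1 (-0.37), the numbers being log2 changes. None was called after median-ratio scaling. In MC-38 none was called at 3 h. At 12 h, where 28.5% of all genes were called higher and 2.59% lower, 2 of 8 proteasome partners, 4 of 7 loading genes and 4 of 13 regulators were called higher and none lower, and 2 of 17 interferon-stimulated genes (Gbp5 and Gbp3) were called higher and 1 (Cxcl9) lower. After median-ratio scaling no loading gene or regulator was called, 3 proteasome partners (Psmb5, Psmb7 and Psme3) were called lower and none higher, and 1 interferon-stimulated gene was called in each direction. The non-classical genes went both ways in TPM, and after median-ratio scaling 4 were called lower and none higher. In TPM Mr1, H2-T10 and H2-T22 were higher (0.64, 0.58 and 0.58) and H2-T23 and H2-T24 lower. H2-T23, whose product Qa-1 is a ligand of NK cell receptors, fell from 68.8 ± 9.4 to 43.3 ± 8.4 TPM, by 0.67 ± 0.15 on the log2 scale (adjusted p = 0.0112), and its decrease was -1.02 after median-ratio scaling (adjusted p = 0.00440).

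At 24 h in MC-38, where 13.2% of all genes were called higher, 16 of 17 interferon-stimulated genes were called higher, and 14 after median-ratio scaling, with a median change of 0.96 against 0.38 for the 10 class I genes. Mx1, Ifit3 and Rsad2 rose by 1.67, 1.49 and 1.41 on the log2 scale, and Ifnb1 rose from 0.684 ± 0.240 to 4.38 ± 2.16 TPM (n = 4 each). The non-classical genes H2-T10 and H2-T22 rose by 1.00 each, from 41.2 ± 8.9 to 81.8 ± 8.4 TPM and from 124 ± 21 to 246 ± 28.5 TPM, and H2-Q4 by 0.56, and all 3 stayed called after median-ratio scaling (0.74, 0.73 and 0.29). Calr, the calreticulin chaperone of the loading complex, rose from 684 ± 96.5 to 1177 ± 63.7 TPM, by 0.79 ± 0.10, or 0.53 after median-ratio scaling (adjusted p = 0.00138). Of the regulators 4 were called higher, or 2 higher and 2 lower (Nfyb and Nfyc) after median-ratio scaling, and Irf1 rose by 0.63 ± 0.19 (adjusted p = 0.0372), or 0.36 with no call after scaling. Proteasome partners had 3 of 8 called higher (Psme2, Psme1 and Psmb7), none of these after scaling, when Psme3 was called lower (-0.19).

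Between mice of the same group the 10 genes varied together in RM-9, and in MC-38 all but Nlrc5 did. Deviations from the group means of log2 TPM after median-ratio scaling were correlated over the 15 RM-9 libraries with a median Pearson r of 0.858 over the 45 gene pairs (0.557 to 0.988). Over the 16 MC-38 libraries the median was 0.642, and the range ran from -0.518 to 0.951. In MC-38 it was Nlrc5 that stood apart, with r from -0.518 to 0.119 to the other 9 genes (median -0.026), or -0.499 to 0.179 without MC-38 Control mouse 1. These values are a description: both genes of a pair come from the same library and share its depth, tissue mix and scaling. Values of other gene pairs are not given for comparison. In RM-9, Control mouse 3 was the lowest Control mouse and RT 3 h mouse 3 the lowest RT 3 h mouse for all 10 genes.

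**Figure D5:**
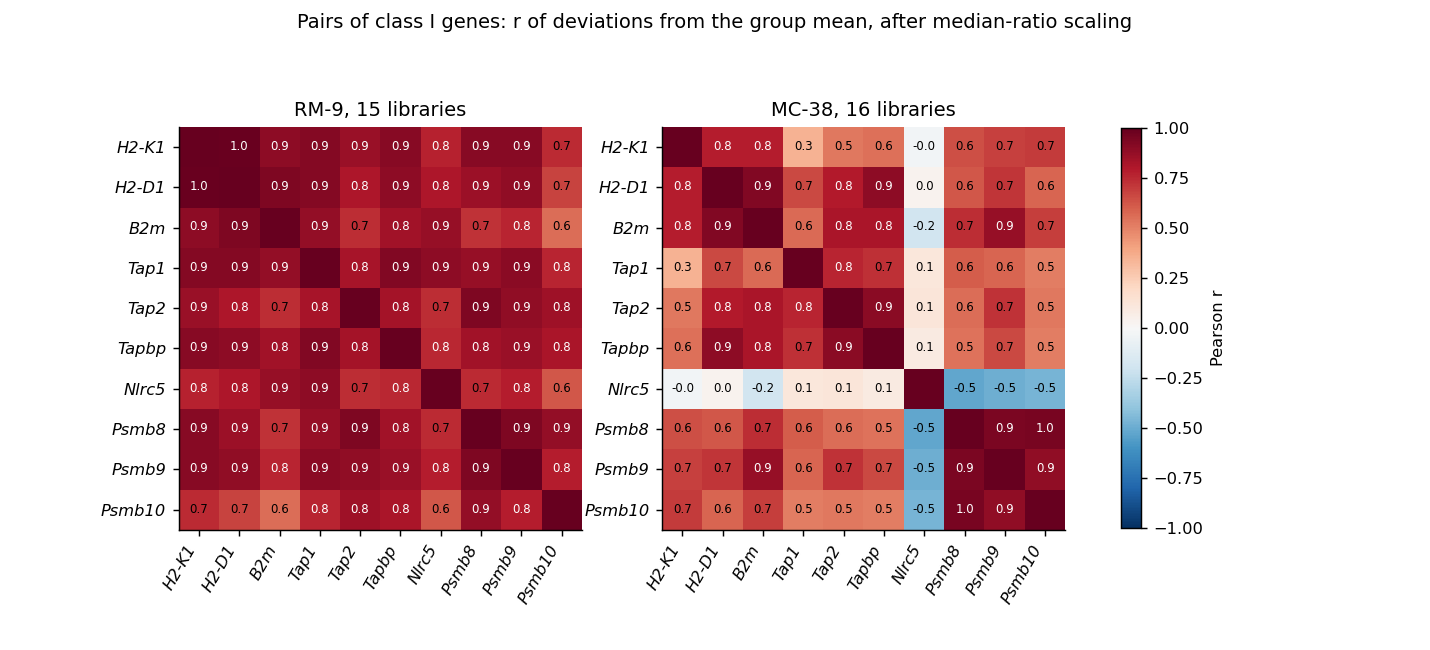
Pearson r between pairs of class I genes, from deviations of each library from its group mean of log2 TPM after median-ratio scaling, in 15 RM-9 and 16 MC-38 libraries (color and printed value, rounded). RM-9 is red throughout (0.557 to 0.988), and in MC-38 the row and column of Nlrc5 stand apart, down to -0.518.

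Outside the 10 genes, the genes whose log2 level followed their mean most closely in both models were H2-Q4 (Pearson r = 0.944 over 15 RM-9 and 0.928 over 16 MC-38 libraries), Tgtp1 (0.908 and 0.824), Gbp2 (0.825 and 0.823), Lgals3bp (0.855 and 0.821) and Tgtp2 (0.900 and 0.818), after median-ratio scaling. H2-Q4 shares sequence with H2-K1 and H2-D1. Tgtp1 and Tgtp2 are near-identical interferon-induced GTPases whose reads may be split between them, Gbp2 is another interferon-induced GTPase, and Lgals3bp encodes a secreted glycoprotein. In mean TPM these 5 genes also stood lower in RM-9 than in MC-38 libraries, from 2.11 against 91.9 TPM for Tgtp1 to 61.6 against 619 TPM for Lgals3bp.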

How the data were processed

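RNA was extracted with the RNeasy Plus Mini kit from tumor tissue of 31 mice, 1 tumor each, and TruSeq Stranded mRNA libraries were sequenced with single 75-base reads. The deposited gene tables give TPM, FPKM and coverage (the signal per base of a gene), as the authors computed them. The aligner and quantifier are not given in the sources used here, and the submitters' processing notes name bcl2fastq 2.17 and GRCm39. The coordinates in the files matched a GRCm38 annotation instead (91.1% of 45223 shared genes had the same start or end), so GRCm38 is used for positions. Depth, derived from coverage and FPKM, was 21400000 to 29400000 reads per library. No column holds read counts, so no count model was used.

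TPM of rows with the same gene ID were summed, rows on alternate haplotype sequences being dropped. Tests took genes whose TPM averaged 0.5 or more, which held for all 10 class I genes, and were made on log2(TPM + 0.5), a scale that understates the changes of low genes. limma 3.58.1 (R 4.3.3) was fitted with a variance trend to the 4 groups of each model, and to all 8 groups for the differences between models. P-values were adjusted by Benjamini-Hochberg over all genes, with a threshold of 0.05. They weigh a difference against the spread between mice within groups, pooled over all groups of the fit. The study itself used Dunnett comparisons on TPM, which were run as an alternative for the 10 genes only and without adjustment over genes. Other alternatives were other scalings, filters, pseudocounts, a replicate block and the leaving out of each mouse. Ratios within a library were compared by two-sided exact permutation tests (scipy 1.17.1). The scripts were tested on simulated data. The class I genes, pathway lists and marker lists were chosen with earlier results of these data known. All 10 class I genes are named. From each other pathway list the text draws on the called genes with the largest changes (up to 3 in each direction after RT, up to 4 between models), and it names the 5 genes most like the mean of the 10 in both models. Ifng, Krt18, Cd79a, Nfya, Nfyb and genes called only after median-ratio scaling were also named after their values were seen. Promoters came from RefSeq (GRCm38.p6) for 8 of the 10 genes. Some genes of the lists are not reported here.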

Additional observations from a re-analysis of the deposited data

Results flagged for a closer look

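In 4 of 70 gene and group combinations of 4 mice, 1 mouse lay far from the other 3 by Dixon's test, where chance flags about 1 in 20 groups. These were B2m in MC-38 RT 3 h mouse 2 (3686 TPM, low), Tapbp in RM-9 RT 12 h mouse 3 (35.5 TPM, high), Psmb10 in MC-38 RT 12 h mouse 2 (388 TPM, low) and Psmb10 in MC-38 RT 24 h mouse 3 (557 TPM, high).

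The change from Control to RT 12 h differed between MC-38 and RM-9 for 8 of the 10 genes in TPM. The difference was 0.79 for H2-K1, 1.07 for Tap1, 1.09 for Tap2, 0.98 for Tapbp, 1.15 for Nlrc5, 1.24 for Psmb8, 1.28 for Psmb9 and 0.85 for Psmb10 on the log2 scale, against 0.50 for the median of all genes. None of the 8 was called after median-ratio scaling.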

How the results depend on the processing

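At every setting and with any mouse left out, all 10 class I genes were called higher in MC-38 than in RM-9 Control tumors, and none was called in RM-9 at 3 or 24 h, in MC-38 at 3 h or as a difference of changes at 3 or 24 h by limma. All changes of RM-9 at 12 h stayed negative. The counts of called genes after RT moved with the setting. The share of mt-Nd4l in the TPM was 36.2 to 39.5% in RM-9 Control and 39.9 to 43.5% in RM-9 RT 12 h libraries. In MC-38 it was 15.8 to 29.6% in Control and 13.8 to 16.4% in RT 12 h libraries. The cause of the moved counts was not tested. In RM-9 at 12 h the count of 3 was 0 with no filter on low values, median-ratio scaling, TPM without mitochondrially encoded genes, FPKM or gene coverage per read depth, and 1 when only the 2 groups compared were fitted. In MC-38 at 12 h the count of 3 was 0 with no filter, TPM without mitochondrially encoded genes, FPKM, coverage or only the 2 groups compared, 1 without the variance trend and 2, both lower, with median-ratio scaling. In MC-38 at 24 h the count of 4 was 1 with median-ratio scaling or FPKM, 2 with coverage and 0 with only the 2 groups compared. For the difference of changes at 12 h the count of 8 was 5 with no filter, 4 without mitochondrially encoded genes and 0 with median-ratio scaling, FPKM or coverage. With a mouse left out the counts ranged from 0 to 4 in RM-9 at 12 h, from 0 to 5 and from 1 to 7 in MC-38 at 12 and 24 h, and from 5 to 9 for the difference of changes at 12 h. Pseudocounts of 0.1 and 1 changed no call. Coverage per read depth was chosen after seeing the data. Dunnett comparisons on TPM, which were not adjusted over genes, gave p under 0.05 in 13 of 60 gene comparisons. Of these 4 were not called by limma, and 1 limma call (Nlrc5 in MC-38 at 12 h) was not among them.

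The labels number the mice within each group, and the numbers did not pair samples: deviations of same-numbered mice had a median r of -0.061 in RM-9 and -0.073 in MC-38, against -0.0029 and 0.035 for other numbers. With the replicate number as a block (replicate block) the counts were 3 in RM-9 at 12 h, 4 and 5 in MC-38 at 12 and 24 h, and 8 for the difference of changes at 12 h.

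With gene coverage per read depth the log2 changes that took the other sign were in RM-9 RT 3 h Nlrc5 0.019, and in RM-9 RT 24 h H2-D1 0.00083, B2m 0.0099, Psmb10 0.043, and in MC-38 RT 3 h H2-K1 -0.0041, H2-D1 -0.10, B2m -0.054, Tap2 -0.030, Tapbp -0.000047, Psmb8 -0.010, and in MC-38 RT 12 h H2-K1 -0.11, H2-D1 -0.16, B2m -0.21, Psmb8 -0.035, Psmb9 -0.070, Psmb10 -0.18, and in MC-38 RT 24 h Psmb10 -0.053, and in the difference of changes at RT 12 h B2m -0.026, and in the difference of changes at RT 24 h Psmb10 -0.10. With Dunnett comparisons on TPM the log2 changes that took the other sign were in RM-9 RT 3 h Nlrc5 0.036, and in RM-9 RT 24 h Tap1 -0.00025. With median-ratio scaling the log2 changes that took the other sign were in RM-9 RT 24 h H2-K1 0.015, B2m 0.0054, Psmb10 0.039, and in MC-38 RT 3 h H2-K1 -0.12, H2-D1 -0.16, B2m -0.12, Tap1 -0.0087, Tap2 -0.11, Tapbp -0.059, Psmb8 -0.072, Psmb9 -0.093, Psmb10 -0.061, and in MC-38 RT 12 h H2-K1 -0.24, H2-D1 -0.22, B2m -0.28, Psmb8 -0.10, Psmb9 -0.16, Psmb10 -0.25, and in MC-38 RT 24 h H2-D1 -0.010, Psmb10 -0.090, and in the difference of changes at RT 12 h B2m -0.087, and in the difference of changes at RT 24 h Psmb10 -0.073. With TPM without mitochondrially encoded genes the log2 changes that took the other sign were in RM-9 RT 24 h H2-K1 0.00014, Psmb10 0.025, and in MC-38 RT 3 h H2-D1 -0.032, and in MC-38 RT 12 h H2-K1 -0.024, H2-D1 -0.0060, B2m -0.066, Psmb10 -0.038. With FPKM the log2 changes that took the other sign were in RM-9 RT 24 h H2-K1 0.019, H2-D1 0.0013, B2m 0.0099, Psmb10 0.043, and in MC-38 RT 3 h H2-K1 -0.052, H2-D1 -0.10, B2m -0.054, Tap2 -0.045, Psmb8 -0.0096, Psmb9 -0.030, and in MC-38 RT 12 h H2-K1 -0.17, H2-D1 -0.15, B2m -0.21, Psmb8 -0.034, Psmb9 -0.085, Psmb10 -0.18, and in MC-38 RT 24 h Psmb10 -0.053, and in the difference of changes at RT 12 h B2m -0.026, and in the difference of changes at RT 24 h Psmb10 -0.10. With replicate block the log2 changes that took the other sign were in RM-9 RT 24 h Psmb10 0.072. As a linear ratio, B2m over the summed heavy chains in RM-9 RT 24 h minus Control was -0.0069 in place of a log2 difference of 0.00026. Leaving out each mouse in turn, the log2 changes that took the other sign for at least 1 mouse left out ranged as follows: in RM-9 RT 3 h B2m -0.38 to 0.020, Tap1 -0.30 to 0.31, Tapbp -0.35 to 0.0012, Nlrc5 -0.23 to 0.24, in RM-9 RT 24 h H2-K1 -0.24 to 0.14, H2-D1 -0.25 to 0.10, B2m -0.18 to 0.13, Tap1 -0.17 to 0.17, Tap2 -0.17 to 0.17, Nlrc5 -0.10 to 0.21, Psmb10 -0.22 to 0.13, in MC-38 RT 3 h H2-K1 -0.030 to 0.18, H2-D1 -0.072 to 0.13, B2m -0.0036 to 0.18, Tap2 -0.025 to 0.24, in MC-38 RT 12 h H2-K1 -0.018 to 0.19, B2m -0.032 to 0.13, Psmb10 -0.0091 to 0.17, in the difference of changes at RT 3 h Tap1 -0.10 to 0.51. The log2 differences of ratios that did so were Psmb8/Psmb5 in MC-38 RT 3 h -0.023 to 0.13, Psmb10/Psmb7 in RM-9 RT 24 h -0.23 to 0.045, Psmb10/Psmb7 in MC-38 RT 12 h -0.019 to 0.075, H2-K1/H2-D1 in RM-9 RT 24 h -0.0072 to 0.044, H2-K1/H2-D1 in MC-38 RT 12 h -0.033 to 0.025, B2m/(H2-K1 + H2-D1) in RM-9 RT 24 h -0.078 to 0.067, B2m/(H2-K1 + H2-D1) in MC-38 RT 3 h -0.00015 to 0.044.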
